A study of Mus musculus with 12 samples.

Results

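Of 12923 m6A peaks measured in mouse embryonic stem cells, 393 (3.04%) were lower by a set factor in both del-cIDR libraries than in all others. The Alkbh5 of del-cIDR cells lacks a disordered region at its C-terminal end. The 393 peaks were selected by their m6A ratios in all 6 libraries. A peak belonged to the set when the higher of the 2 del-cIDR ratios was at most 0.87 times the lowest of the 4 ratios of wild-type (WT) and Alkbh5 knockout (KO) cells. Of the peaks outside the set, 1285 (10.3%) also had both del-cIDR ratios below all others, but by less than that factor. The ratio is the number of reads after immunoprecipitation for m6A (IP) over the number before it (input), multiplied by 1 constant per library. Because the rule reads every ratio, the del-cIDR values of these peaks below those of WT and KO are a description and carry no test.

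All 3 genotypes were E14TG2a cells, an established mouse embryonic stem cell line kept in serum with LIF, the MEK inhibitor PD0325901 and the GSK3 inhibitor CHIR99021. WT cells carry no Alkbh5 change that the labels name, KO cells lack Alkbh5, and del-cIDR cells keep an Alkbh5 without the C-terminal disordered stretch. Each genotype had 2 input and 2 IP samples of fragmented polyA RNA, 12 samples in all. The labels do not say whether replicates were separate cultures, nor how many clones stand behind each altered genotype, so the spread between replicates may be technical. Markers of the cell type could not be looked up, since the tables give genes by identifier alone.

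N6-methyladenosine is the most abundant internal modification of mRNA. A nuclear complex built around METTL3 and METTL14 writes it, mostly near stop codons and in long exons, and YTH domain proteins read it and alter the decay and translation of the transcript. ALKBH5 and FTO are the known erasers, and ALKBH5 acts mainly in the nucleus. Intrinsically disordered regions are stretches of protein without a fixed fold that often steer where an enzyme goes in the cell and what it binds. A peak in this assay is a stretch of RNA in which IP reads pile up over input, and 1 peak can hold several methylated adenosines.

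The input libraries held 19918177 to 36678609 reads in genes. Each library was scaled so that a control RNA named as m6A had the ratio 4.1, and an RNA named as unmodified then stood at 0.0100 to 0.0527. Read in lowest terms, which gives lower bounds, a library held 63 to 121 input and 195 to 277 IP reads at its median peak. The median ratio over all peaks was 1.60 and 1.40 in the WT libraries, 1.63 and 1.86 in the KO libraries, and 1.48 and 1.49 in the del-cIDR libraries. On this scale WT replicate 2 and both del-cIDR libraries were therefore the 3 libraries with the lowest general level. The constant was 0.82 and 0.94 in the KO libraries and 0.49 to 0.59 in the others. Before it was applied, the KO libraries had the lowest medians, at 1.98 and 1.97 against 2.43 to 3.04. Counting error of the control alone was 3.1% to 5.1% per library.

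In the 393 members the median ratio was 1.08 and 1.06 in the del-cIDR libraries. It was 1.69 and 1.55 in WT and 1.73 and 1.89 in KO. The members thus lay slightly above the general level in WT and KO and well below it in del-cIDR. Their del-cIDR mean was 63.4% of the mean of the other 4 libraries at the median member, with quartiles of 55.5% and 70.7%. Against WT alone the median was 67.4%, and against KO alone 61.7%. Over all peaks these medians were 91.5%, 98.9% and 85.6%.

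Most members passed the rule by a small margin. The quotient of the higher del-cIDR ratio over the lowest other ratio had a median of 0.816. Of the members, 299 lay at or below 0.85, 161 at or below 0.8, 45 at or below 0.7 and 3 at or below 0.5. The 3 members just inside the limit, with quotients of 0.86976 to 0.86997, were on chromosome 19 (12564618 to 12564929, GRCm39), chromosome 9 (63554246 to 63554724) and chromosome X (135071511 to 135071788). The 3 peaks just outside it, from 0.87023 to 0.87043, were on chromosome 7 (27689559 to 27690075), chromosome 11 (35598727 to 35599072) and chromosome 9 (52027334 to 52028172). The del-cIDR mean stood at 73.5% to 77.3% of the other 4 libraries in those inside and at 58.3% to 79.8% in those outside.

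The members with the smallest quotients among those of at least median level (mean ratio 1.60, which 187 members reached) had del-cIDR means of 34.6% to 56.7% of the other 4 libraries. The first was a peak of 283 bases on chromosome 10 (81849915 to 81850197). Its ratio was 1.82 and 1.81 in the WT libraries, 2.04 and 3.18 in the KO libraries, and 0.790 and 0.851 in the del-cIDR libraries, or 1.81 ± 0.01, 2.61 ± 0.81 and 0.820 ± 0.043 (SD, n = 2 each). Both del-cIDR libraries were far below the other 4, which all lay above 1.8. In lowest terms 19 to 31 input reads and 31 to 97 IP reads stood behind each value, which leaves a counting error of 21% to 28% per ratio.

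The second, on chromosome 7 (43238707 to 43238973), had 1.72 and 2.15 in the WT libraries, 2.44 and 2.01 in the KO libraries, and 0.816 and 0.760 in the del-cIDR libraries. WT and KO overlapped here, and del-cIDR stood at 37.9% of their mean. The peak of 991 bases on chromosome 12 (9019607 to 9020597) had 1.96 and 2.00 in the WT libraries, 3.03 and 4.98 in the KO libraries, and 1.09 and 0.983 in the del-cIDR libraries. The KO libraries were above the WT libraries in this peak, and the KO replicates lay further apart than KO replicate 1 lay from WT. The fourth, on chromosome 13 (74701604 to 74701951), had 2.78 and 2.44 in the WT libraries, 2.53 and 4.89 in the KO libraries, and 1.44 and 1.38 in the del-cIDR libraries. KO replicate 1 fell between the WT libraries, while KO replicate 2 was the highest of the 6.

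Another, on chromosome 4 (133392061 to 133392322), had 3.4 and 3.6 in the WT libraries, 4.40 and 5.15 in the KO libraries, and 1.17 and 2.01 in the del-cIDR libraries. The sixth, on chromosome 2 (164595723 to 164595963), had 2.65 and 3.04 in the WT libraries, 3.42 and 2.80 in the KO libraries, and 1.61 and 1.63 in the del-cIDR libraries. These peaks show both kinds of spread: on chromosome 4 the del-cIDR replicates were far apart, and on chromosome 2 they were nearly equal. In lowest terms del-cIDR replicate 1 rested on 1 input read on chromosome 4 and on 4 on chromosome 2. The counting errors were about 120% and 58%, as upper bounds. The seventh, on chromosome 7 (4946539 to 4947261), had 2.2 and 1.85 in the WT libraries, 3.08 and 3.62 in the KO libraries, and 1.08 and 1.17 in the del-cIDR libraries. The eighth, on chromosome 15 (89208566 to 89208887), had 3.07 and 3.15 in the WT libraries, 2.90 and 2.78 in the KO libraries, and 1.76 and 1.61 in the del-cIDR libraries. The eighth was the only one of the 10 whose KO mean was below its WT mean. Over all peaks the KO mean was above the WT mean in 79.0%, and nothing is read from this count.

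The ninth, on chromosome 6 (97264286 to 97264679), had 2.68 and 2.79 in the WT libraries, 3.12 and 3.94 in the KO libraries, and 1.37 and 1.72 in the del-cIDR libraries. The tenth, on chromosome 7 (126983334 to 126983705), had 3.46 and 3.83 in the WT libraries, 4.77 and 6.53 in the KO libraries, and 2.23 and 1.11 in the del-cIDR libraries. In 6 of these 10 peaks both KO libraries exceeded both WT libraries, as they did in 42.8% of all peaks, and nothing is read from that count. The 10 peaks rested on few reads, with medians of 8.5 to 48.5 input reads over the 6 libraries in lowest terms. On chromosomes 4, 12 and 15 a del-cIDR value rested on 1 input read in lowest terms. All 10 met the same rule after each library was centred on its own median.

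**Figure D1:**
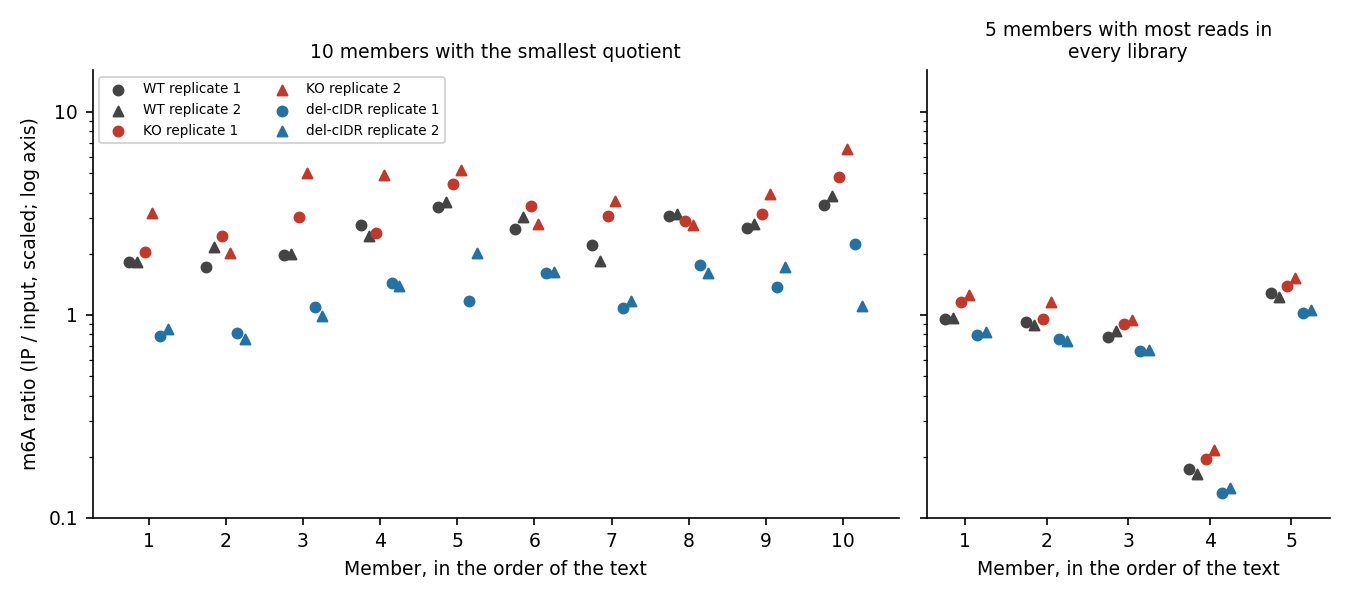
m6A ratio (IP over input, scaled to the control, log axis) of single members in the 6 libraries, with circles for replicate 1 and triangles for replicate 2. The left panel shows the 10 members with the smallest quotient among those of at least median level, where del-cIDR stood at 34.6% to 56.7% of the other libraries. The right panel shows the 5 members whose shallowest library had the most input reads in lowest terms, among those recovered in every library. There del-cIDR stood at 73.0% to 77.3%.

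Members with many input reads in every library lay closer to the limit. The 5 whose shallowest library held the most input reads were picked out after their values were seen. This ranking used reads in lowest terms and left out peaks with an unrecovered ratio in any library. The member with the highest median input reads (2196), on chromosome 4 (133261698 to 133262042), was not among the 5. A peak on chromosome 15 (98935636 to 98935863) had 0.952 and 0.965 in the WT libraries, 1.16 and 1.25 in the KO libraries, and 0.798 and 0.826 in the del-cIDR libraries, each with a counting error of 2.8% to 4.5%. Another, on chromosome 1 (167053675 to 167054113), had 0.925 and 0.887 in the WT libraries, 0.954 and 1.16 in the KO libraries, and 0.758 and 0.745 in the del-cIDR libraries. In both peaks del-cIDR was lowest and KO highest, but on chromosome 1 the KO replicates lay further apart than KO replicate 1 lay from WT.

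That order recurred in the other 3. The peak on chromosome X (135071511 to 135071788), which is also the one just inside the limit, had 0.774 and 0.828 in the WT libraries, 0.905 and 0.940 in the KO libraries, and 0.660 and 0.673 in the del-cIDR libraries. A peak of low ratio on chromosome 12 (21466859 to 21467181) had 0.173 and 0.164 in the WT libraries, 0.195 and 0.217 in the KO libraries, and 0.133 and 0.140 in the del-cIDR libraries. A peak of 1110 bases on chromosome 4 (136268719 to 136269828) had 1.28 and 1.23 in the WT libraries, 1.38 and 1.52 in the KO libraries, and 1.02 and 1.05 in the del-cIDR libraries. After centring, none of these 5 peaks met the rule, with quotients of 0.872 to 0.937, so that del-cIDR was still lowest in each but by less than the rule asks. The rule itself sets del-cIDR lowest in every member. Both KO libraries lay above both WT libraries in 42.8% of all peaks, and nothing is read from the recurring order. On the deposited scale the medians over all peaks were also higher in KO (1.63 and 1.86) than in WT (1.60 and 1.40). The order of KO and WT after centring was not followed for these 5 peaks.

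The 5 members with the highest WT means had median input reads of 6 to 56 over the libraries. The highest, on chromosome 19 (56711566 to 56712450), had 24.0 and 9.98 in the WT libraries, 18.9 and 14.2 in the KO libraries, and 8.51 and 8.45 in the del-cIDR libraries. Its WT replicates lay further apart than WT replicate 2 and del-cIDR. It rested on a median of 6 input reads in lowest terms, with 7 and 10 in WT (counting errors of 38% and 33%) and 1 in each KO library (about 100%), as upper bounds. A peak on chromosome 1 (62854749 to 62855205) had 10.7 and 10.8 in the WT libraries, 9.74 and 13.1 in the KO libraries, and 8.20 and 8.39 in the del-cIDR libraries. The widest member, of 3436 bases on chromosome 7 (40821068 to 40824503), had 12.5 and 7.85 in the WT libraries, 8.06 and 11.8 in the KO libraries, and 5.16 and 6.13 in the del-cIDR libraries. WT and KO overlapped in all 3 of these peaks.

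The other 2 were a peak on chromosome 7 (130945217 to 130945648), with means of 9.58 ± 1.8 in WT, 9.17 ± 0.70 in KO and 6.83 ± 0.32 in del-cIDR, and a peak of 2975 bases on chromosome 17 (12235111 to 12238085), with 9.49 ± 3.4, 18.5 ± 7.9 and 5.42 ± 0.83 (SD, n = 2 each). After centring, 3 of these 5 peaks still met the rule, with the peaks on chromosome 1 and on chromosome 7 at 130945217 as the exceptions. At the other end, a peak on chromosome 1 (155819938 to 155820145) was the 1 member with a library at 0. It is listed at 0 in del-cIDR replicate 2 and had 0.0809 to 0.330 in WT and KO, on 1 to 4 IP reads in lowest terms.

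The set was as large for some pairs of libraries that join 2 genotypes. The same rule was applied to each of the 15 pairs of libraries in place of the del-cIDR pair. WT replicate 2 with del-cIDR replicate 1 gave 474 peaks, WT replicate 2 with del-cIDR replicate 2 gave 455, the del-cIDR pair gave 393, and the WT pair gave 333. The KO pair gave 67. The 12 pairs that join 2 genotypes ranged from 29 to 474 with a median of 99.5. On the deposited scale, therefore, the count of the del-cIDR pair lay within the range of pairs that share no genotype, and the 3 libraries in the leading pairs were those with the lowest general level.

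After each library was divided by its median over all peaks, the order of the pairs changed. The del-cIDR pair then gave 223 peaks, the KO pair 289 and the WT pair 214, and the 12 mixed pairs 73 to 166. On that scale each genotype's own pair gave more peaks than any mixed pair, and del-cIDR stood between KO and WT. Of the 393 members, 192 (48.9%) were among those 223 peaks, of which they formed 86.1%. Without the constant per library the del-cIDR pair gave 28 peaks, of which 26 were members, while the KO pair gave 4602. The mirrored rule, in which the lower del-cIDR ratio had to exceed every other by the same factor, was met by 102 peaks on the deposited scale and by 260 after centring. The lower direction thus led on the deposited scale and the higher direction after centring.

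**Figure D2:**
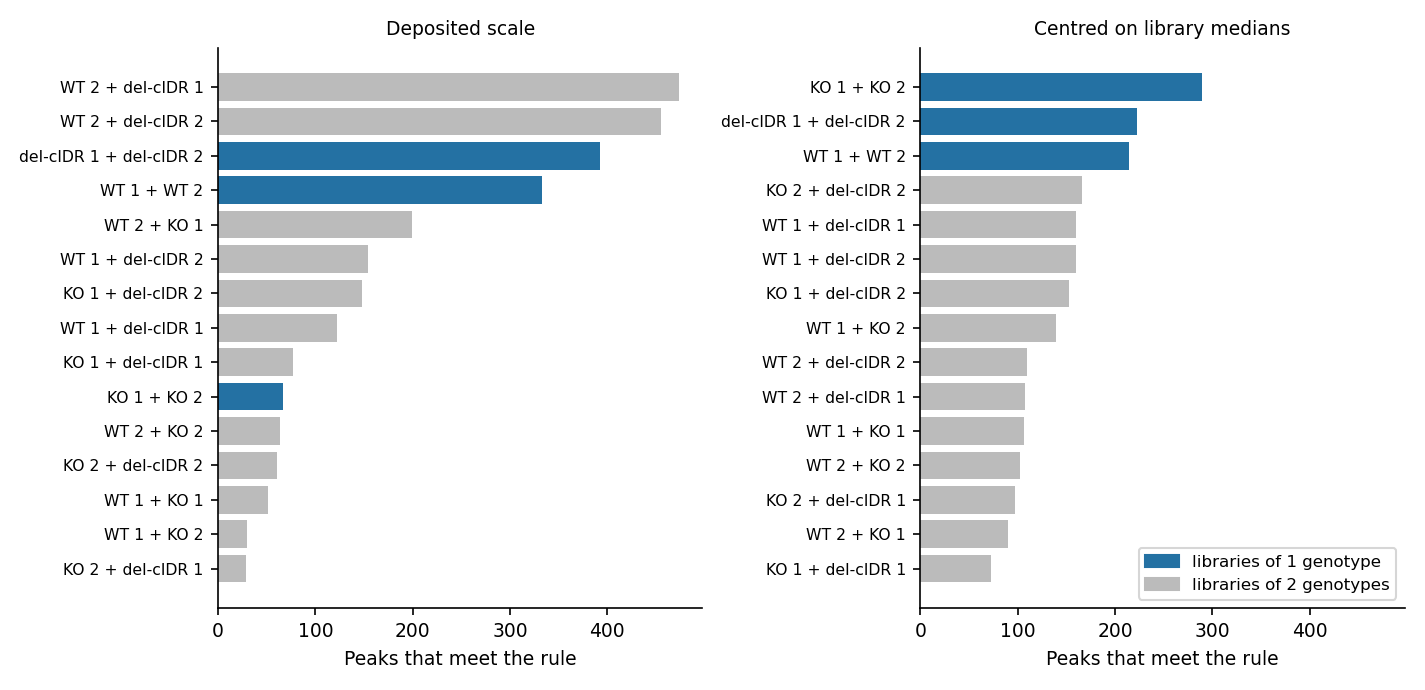
Number of peaks (horizontal axis) in which a pair of libraries lay at or below 0.87 times the lowest of the other 4, for all 15 pairs, as deposited (left) and after centring each library on its median (right); blue bars are pairs of 1 genotype. The del-cIDR pair, with 393 and 223 peaks, came after 2 mixed pairs on the left and after the KO pair on the right, where the 3 pairs of 1 genotype led.

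Which library set the limit varied among the members. The lowest of the WT and KO ratios was that of WT replicate 2 in 171 members, KO replicate 1 in 94, WT replicate 1 in 90 and KO replicate 2 in 38. WT replicate 2 was the lowest of these 4 in 43.5% of the members and in 59.3% of all peaks. The higher del-cIDR ratio was that of replicate 1 in 219 members and of replicate 2 in 174. Without WT replicate 2 the rule gave 1068 peaks, and without del-cIDR replicate 1 or 2 it gave 1609 or 1194.

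Members were peaks with few reads. Their median was 50.5 input reads over the libraries, against 112 over all peaks, and 132 IP reads against 278. All peaks were divided into 5 classes of nearly equal size by input reads. Of the class with the fewest (1 to 35), 150 peaks or 5.79% were members. The share fell in each following class, to 3.76%, 3.18%, 1.63% and 0.853%, and 22 members lay in the class with the most reads (358 to 2970). The size of the difference moved with it: the median del-cIDR mean was 55.4% of the other libraries in the class with the fewest reads and 74.9% in the highest. The mirrored set fell in the same way, from 1.93% to 0.116%. The counting error of a ratio had a median of 17.2% in the members and 11.7% over all peaks, as upper bounds. How far counting error contributed to the set was not tested.

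**Figure D3:**
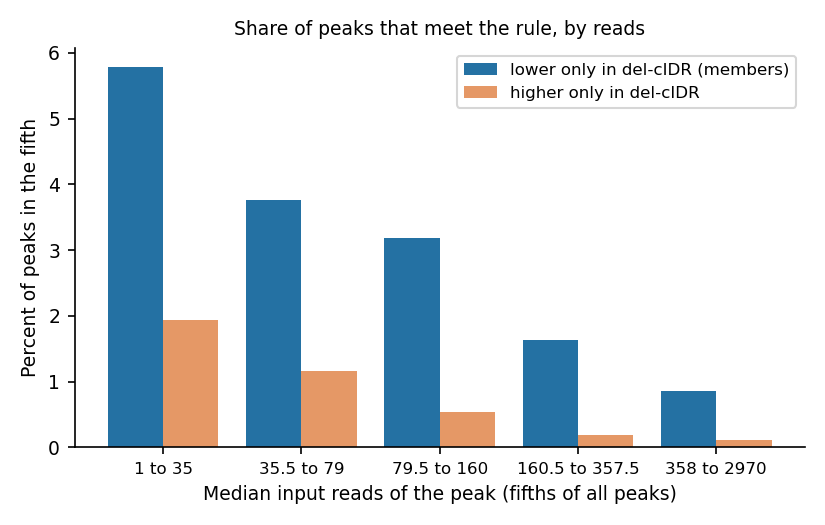
Percent of peaks that met the rule (vertical axis) in each of 5 classes of all peaks by median input reads over the 6 libraries (horizontal axis, in lowest terms), for the members and for the mirrored rule. Both shares fell from the class with the fewest reads (5.79% and 1.93%) to the class with the most (0.853% and 0.116%).

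Both parts of the ratio differed in the members. Each library's reads were set against its own median over all peaks, on the log2 scale. The members' median for IP reads was -1.22 and -1.23 in del-cIDR, -0.88 and -0.84 in WT, and -0.91 and -1.01 in KO. For input reads it was -0.87 and -0.93 in del-cIDR, -1.21 and -1.20 in WT, and -1.10 and -1.03 in KO. The del-cIDR libraries were thus lowest in IP reads and highest in input reads, with no overlap with the other 4 libraries in either. At the median member the input reads were higher in del-cIDR by 0.37 (0.10 over all peaks) and the IP reads lower, at -0.25 (0.08 over all peaks). In the 62 members with at least 50 input reads in every library, the input difference was 0.38 and the IP difference -0.01, against 0.10 and 0.07 over all peaks with as many reads. The rule favours peaks with low IP reads as well as peaks with high input reads in del-cIDR, and reads in lowest terms are coarse for a single peak, so these medians describe the selection. Input reads follow the abundance of the transcript, which was not followed further because peaks and genes could not be paired here.

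**Figure D4:**
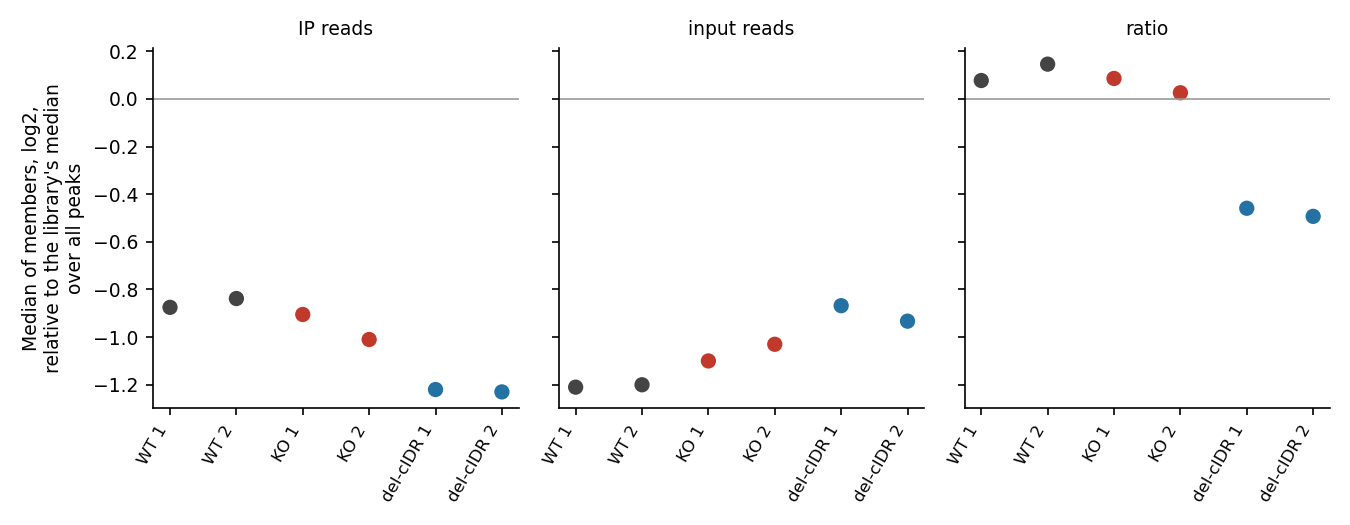
Median over the members of IP reads, input reads and ratio in each library (vertical axis, log2 relative to that library's median over all peaks, grey line at 0). The del-cIDR libraries (blue) lay lowest for IP reads, at -1.22 and -1.23, and highest for input reads, at -0.87 and -0.93.

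Width and position were not used by the rule. The members' median width was 406 bases against 455 over all peaks, and the share of members was 3.42% in the narrowest of 5 classes (200 to 283 bases), 3.73% in the next and 2.17% in the widest (749 to 9632 bases). Width and input reads were not separated. Chromosomes with over 300 peaks held between 2.33% (chromosome 3, 13 of 558 peaks) and 4.40% members (chromosome 16, 19 of 432). The X chromosome held 12 of 327 (3.67%) and the Y chromosome 1 of 10. The mean ratio over all libraries, which the rule does use, had a median of 1.49 in the members and 1.60 over all peaks. Members were found at every level, from 2.79% in the lowest of 5 classes of mean ratio to 3.6% in the second and 2.90% in the highest.

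A next peak within 5000 bases was present for 177 members (45%) and for 44.4% of the other peaks. In 11 of the 177 (6.21%) that next peak was itself a member, against 3.13% of other peaks whose next peak was one. The 166 neighbours that were not members had a del-cIDR mean at a median of 88.4% of the other 4 libraries, with quartiles of 80.7% and 95.7%, where all peaks outside the set had 91.9%, with quartiles of 83.9% and 102%. Both del-cIDR ratios lay below all other ratios in 20 of these neighbours (12%) and in 10.3% of all peaks outside the set. Neighbours may share a transcript and so its input reads, which was not followed here.

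In 6 pairs of members within 5000 bases, 1 member was the nearest peak of the other. Members on chromosome 13 (62318959 to 62319228 and 62321821 to 62322209) also lay within that distance, but each had another peak nearer. On chromosome 14 the peaks at 47548556 to 47548757 and 47550923 to 47551222 had WT means of 1.12 ± 0.20 and 1.02 ± 0.03, KO means of 1.71 ± 0.42 and 1.57 ± 0.21, and del-cIDR means of 0.811 ± 0.008 and 0.631 ± 0.11 (SD, n = 2 each). Both peaks had the same order of genotypes, and both met the rule after centring. On chromosome 7 the tenth peak above lay beside a peak at 126982613 to 126983031, in which del-cIDR stood at 54.9% of the other libraries. The pairs on chromosome 11 (3862760 to 3863182 and 3863310 to 3864091), chromosome 16 (59375987 to 59376480 and 59380307 to 59380796), chromosome 17 (44408541 to 44409005 and 44410244 to 44410547) and chromosome 5 (121466133 to 121466498 and 121466842 to 121467267) stood at 36.4% to 68.5%. After centring, both peaks on chromosome 7 met the rule and neither on chromosome 5 did. On chromosomes 11, 16 and 17 only the peaks at 3862760, 59375987 and 44410244 met it. In lowest terms, 1 input read stood behind KO replicate 1 at 3862760 and WT replicate 1 at 44408541. In the 4 pairs on chromosomes 5, 11, 16 and 17, WT and KO overlapped in 6 of the 8 peaks. Both KO libraries were above both WT libraries in the other 2. Over all peaks the genotypes overlapped in 52.4% and KO lay above WT in 42.8%, and nothing is read from these few peaks.

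KO against WT is not the contrast of the rule, but it is not independent of it. The rule asks for a high value of the lowest WT or KO ratio, which over all peaks was mostly a WT ratio (WT replicate 2 in 59.3% and WT replicate 1 in 18.7%). The median WT mean was 1.65 in the members and 1.51 over all peaks, and the median KO mean was 1.80 and 1.76. How far the selection itself moves KO minus WT in the members was not tested, and the values below are a description of them. Both KO ratios were above both WT ratios in 144 members (36.6%), against 42.8% of all peaks. Both were below in 29 members (7.38%), against 4.81% of all peaks, and in 220 members the genotypes overlapped. The KO mean was above the WT mean in 73.8% of the members and in 79.0% of all peaks. The KO mean was thus the higher in most members, as in most peaks, on the deposited scale, and the gap between these shares is not read as a result.

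In the fit across all peaks (limma on log2(ratio + 1), with a filter that keeps mean ratios from 1 upward), 286 of the 393 members were tested and 0 were called in KO against WT at a Benjamini-Hochberg adjusted p under 0.05, where 0% of the 9451 tested peaks were called. The smallest adjusted p among the members was 0.330. Since the rule used these same WT and KO ratios, the p-values of members describe them and are not a test of the set. At an unadjusted p under 0.05 there were 30 members (10.5%), 28 of them higher in KO, against 11.1% of all tested peaks. That share is near the background. The direction rests on the scaling: after centring, 33 members had an unadjusted p under 0.05 and 6 of them were higher in KO. The members' median difference, KO minus WT, was 0.10 against 0.13 over all tested peaks, with a spread between replicates of the members' median of 0.07 (SD). After centring it was -0.04, so its sign rests on the scaling.

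The member with the smallest p in each direction was picked after the values were seen. On chromosome 2 (126517429 to 126517994) the ratio was 1.84 and 1.92 in the WT libraries, 0.972 and 1.19 in the KO libraries, and 0.744 and 0.643 in the del-cIDR libraries. KO stood between WT and del-cIDR in this peak, with a difference from WT of -0.47 (SE 0.11, limma adjusted p = 0.330). On chromosome 1 (182871040 to 182871304) it was 1.05 and 0.962 in the WT libraries, 1.86 and 1.78 in the KO libraries, and 0.675 and 0.410 in the del-cIDR libraries, with KO above WT by 0.49 (SE 0.12, limma adjusted p = 0.336). Neither passed the threshold.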

How the data were processed

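The authors' deposited m6A table holds a ratio per peak and library, IP over input times 1 constant, as read from the values. Its name says CPM. The authors' deposited mRNA table holds a signal per gene, its reads multiplied by a factor of the input library; for KO replicate 2 the deposited values are counts. It served here for depth and for the control's input reads. Without roles, the build GRCm39 and bedtools, featureCounts, MACS2, Picard, SAMtools, HISAT2 and fastp are named in the submitters' processing notes. Dividing out the control gave each ratio as whole numbers in lowest terms for 98.6% to 99.6% of values per library (denominators up to 3000, relative tolerance 1e-10), and 13 peaks, none a member, lack a median. These reads are lower bounds, so counting errors are upper bounds and cover counting only.

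Peak identifiers were taken as BED intervals and printed counted from 1. KO against WT was tested on log2(ratio + 1) with limma 3.58.1 in R 4.3.3, with all 3 genotypes and a variance trend, and adjusted over all peaks tested. The fit and the recovery of reads were tested on simulated data. Python 3.11.15 with pandas 2.3.3 made the tables. The set and its named members were chosen with earlier results of these data known. Named were the smallest quotients at or above the median level, highest WT means, those at the limit, and nearest-peak pairs within 5000 bases.

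The reference tables are of another build and matched no gene identifier. Gene annotation, gene lists, cell type markers, host gene mRNA, motifs and sequences, planned for an annotation in GRCm39, were therefore not analysed here.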

Additional observations from a re-analysis of the deposited data

How the results depend on the processing

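The count of 393 members was 161 at a threshold of 0.8 and 977 at 0.95, 223 after centring on library medians, 28 with unscaled ratios, 62 with at least 50 input reads in every library (in lowest terms) and 199 with a median of at least 50 input reads, the last chosen after seeing the data. With a mean ratio of at least 1 it was 286. Leaving out 1 library gave 436 to 1609 peaks, as a rule over 5 libraries asks less. It exceeded 1.5 times the count without WT replicate 2 (1068), del-cIDR replicate 1 (1609) or del-cIDR replicate 2 (1194). Members called in KO against WT numbered 0 under every alternative run, with up to 59 of all peaks called. The members' median KO minus WT difference turned to -0.042 after centring, where that over all tested peaks was -0.004. The members' median difference was 0.03 to 0.13 when 1 library was left out. With a replicate block it stayed 0.10, with 0 members and 59 of all peaks called. Over all peaks, same-numbered libraries did not deviate together (correlations of -0.029 to 0.019). Such a correlation cannot show whether they were paired in part of the peaks. The alternatives for host gene mRNA were not run, because peaks could not be paired with genes. Depth limits single peaks: at the median member the counting error of a ratio was at most 17.2%.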
